A study of Arabidopsis thaliana with 7 samples.

Results

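The transcripts described here are those of ccb382, ccb452 and orfX, which are encoded by the mitochondrial genome of Arabidopsis thaliana. They were taken as every probe set of the array annotated to exactly 1 of these genes, which gave 3 probe sets for 3 genes out of 22810 probe sets in all, and out of 13350 genes that have a probe set naming them alone. The genes had been picked because their probe sets were bright and brighter on average in myb5 seeds than in wild-type seeds, so the genotype difference of these 3 is a description and was not tested. Developing seeds were measured on 1 Affymetrix array per sample, with 3 samples of the myb5-1 mutant and 4 of wild type (Col). Both genotypes were raised side by side on soil in constant light, and the seeds, freed from their siliques, ranged from the globular to the walking-stick stage of the embryo. Per the series design, the samples of a genotype are biological replicates.

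Plant mitochondria attach heme to c-type cytochromes with a bacterial-type cytochrome c maturation pathway, in which membrane proteins move and chaperone heme and a heme lyase joins it to the apocytochrome. The matured cytochrome c and cytochrome c1 then carry electrons in the respiratory chain. In Arabidopsis the lyase subunit CcmF is split over separate mitochondrial genes. The gene table used here lists ccb382 as ccmFN1 and ccb452 as ccmFC, both parts of this split lyase subunit. It lists orfX as mttB, with the synonym tatC, the membrane subunit of the twin-arginine translocation pathway, which moves folded proteins across membranes. In plant mitochondria a poly(A) tail is known mainly as a mark of RNA decay, while the labelling of these samples started from an oligo(dT) primer.

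The libraries did not fall apart by genotype alone. On the first principal component, which held 56.8% of the variance, myb5 replicate 1 and wild-type replicates 1 and 2 lay on 1 side, and myb5 replicates 2 and 3 and wild-type replicates 3 and 4 on the other. Median deposited intensities were 52.2 to 54.4 in myb5 and 49.0 to 50.8 in wild type. The seed coat markers BAN, DFR and SBT1.7 were all measured and bright, with a summed intensity of 9882 to 17136 in myb5 and 9449 to 18287 in wild type. The sums followed the split, at 9449 to 10725 in myb5 replicate 1 and wild-type replicates 1 and 2 and at 16254 to 18287 in the other 4 arrays. MYB5 itself was not analysed here. In bulk seeds, more cells of a type and more RNA per cell cannot be told apart.

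The ccb382 probe set, 244912_at, had intensities of 409.5, 565.0 and 280.6 in myb5 replicates 1 to 3, against 395.2, 127.3, 234.4 and 233.5 in wild-type replicates 1 to 4. Its highest array was myb5 replicate 2 and its lowest wild-type replicate 2, and the genotypes overlapped, because wild-type replicate 1 lay above myb5 replicate 3. The mean was 418 ± 142 in myb5 (SD, n = 3) and 248 ± 110.5 in wild type (SD, n = 4), a ratio of 1.69. After quantile normalization of log2(intensity + 16), the difference, myb5 minus wild type, was 0.77 on the log2 scale with a standard error of 0.36.

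The ccb452 probe set, 244951_s_at, had intensities of 201.3, 423.7 and 256.9 in myb5 replicates 1 to 3, against 142.2, 109.5, 246.6 and 153.8 in wild-type replicates 1 to 4. The same 2 arrays were at the ends, myb5 replicate 2 at the top and wild-type replicate 2 at the bottom, and only wild-type replicate 3 lay within the range of the mutant. The mean was 294 ± 116 in myb5 (SD, n = 3) and 163 ± 58.8 in wild type (SD, n = 4), a ratio of 1.80. The log2 difference was 0.78 ± 0.30 (standard error).

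The orfX probe set, 244928_s_at, had intensities of 477.5, 836.7 and 522.2 in myb5 replicates 1 to 3, against 294.6, 227.7, 682.6 and 253.9 in wild-type replicates 1 to 4. Again myb5 replicate 2 was highest and wild-type replicate 2 lowest. Wild-type replicate 3 was the highest wild-type array and exceeded myb5 replicates 1 and 3, so the genotypes overlapped. The mean was 612 ± 196 in myb5 (SD, n = 3) and 365 ± 214 in wild type (SD, n = 4), a ratio of 1.68. The log2 difference was 0.83 ± 0.39 (standard error).

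The genotypes overlapped for each of the 3 genes, while 2.18% of all probe sets were higher in myb5 and 2.17% lower with no overlap. Since the genes were chosen by this contrast, nothing is read from that count. Intensities of different probe sets depend on their probes and are not compared between genes here.

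**Figure D1:**
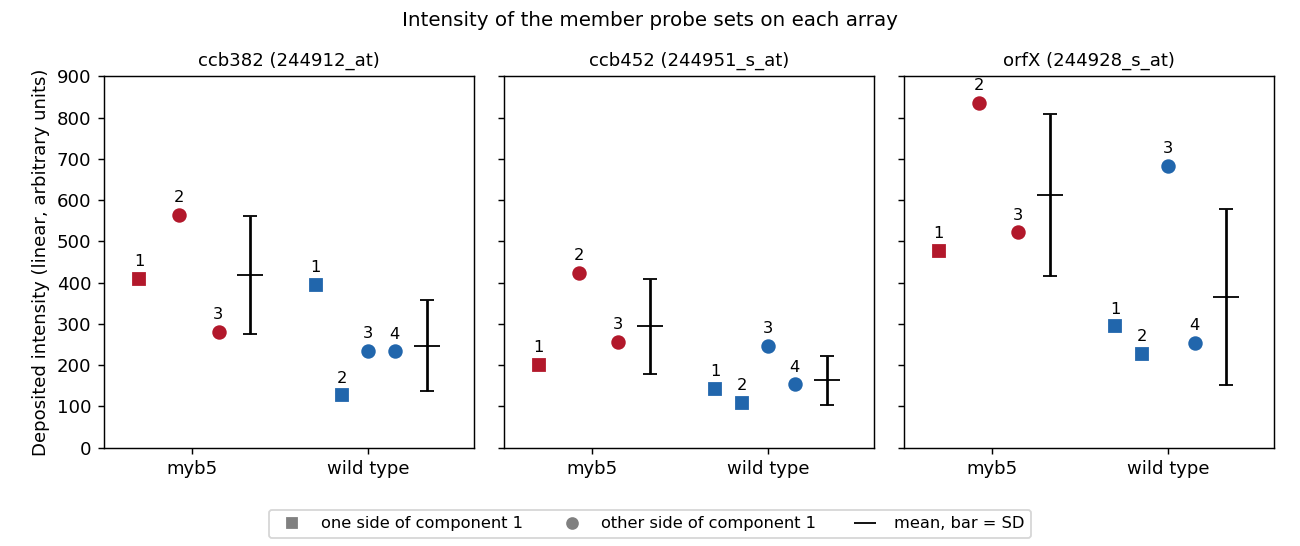
Deposited intensity (linear) of ccb382, ccb452 and orfX on each array, with myb5 left and wild type right in each panel, points numbered by replicate and shaped by their side of the first principal component, and the mean with SD beside them. Myb5 replicate 2 is the highest and wild-type replicate 2 the lowest array in all 3 panels, and the genotypes overlap in each.

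Spread among arrays of 1 genotype was wide for these transcripts. From the lowest to the highest array of a genotype, the intensity of ccb382 ran over 2.01-fold in myb5 and 3.10-fold in wild type. For ccb452 the range was 2.10-fold in myb5 and 2.25-fold in wild type, and for orfX it was 1.75-fold in myb5 and 2.997-fold in wild type. The pooled SD within genotypes, on the normalized log2 scale, was 0.55 for ccb382, 0.46 for ccb452 and 0.60 for orfX. Of the 8622 probe sets with a mean intensity of at least 100, 10.9% varied more within genotypes than ccb382, 16.4% more than ccb452 and 8.88% more than orfX.

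Single arrays carried much of the genotype difference. Without myb5 replicate 2 the log2 difference was 0.52 for ccb382, 0.49 for ccb452 and 0.58 for orfX. Without wild-type replicate 2 it was 0.52 for ccb382, 0.64 for ccb452 and 0.67 for orfX. Leaving out wild-type replicate 3, the bright one for orfX, gave orfX a log2 difference of 1.17 ± 0.24 (standard error). For ccb382 the log2 difference was 1.00 ± 0.31 (standard error) without wild-type replicate 1 and 1.03 ± 0.38 (standard error) without myb5 replicate 3.

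The split along the first principal component touched the genes unequally. On the normalized log2 scale, ccb452 and orfX were lower on average by 0.69 and 0.68 in the set of myb5 replicate 1 and wild-type replicates 1 and 2 than in the other 4 arrays (differences of -0.69 and -0.68), and ccb382 differed by -0.12. Mutant arrays made up 1 of the 3 arrays there and 2 of the other 4, so these differences also hold a part of the genotype difference. Within that set of 3 arrays, the log2 difference between genotypes was 0.81 for ccb382, 0.60 for ccb452 and 0.85 for orfX. Within the other 4 arrays it was 0.75 for ccb382, 0.72 for ccb452 and 0.66 for orfX. These values describe the contrast by which the genes were chosen, and the set of 3 arrays holds a single mutant array, with a standard error of 0.68 for ccb382.

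**Figure D2:**
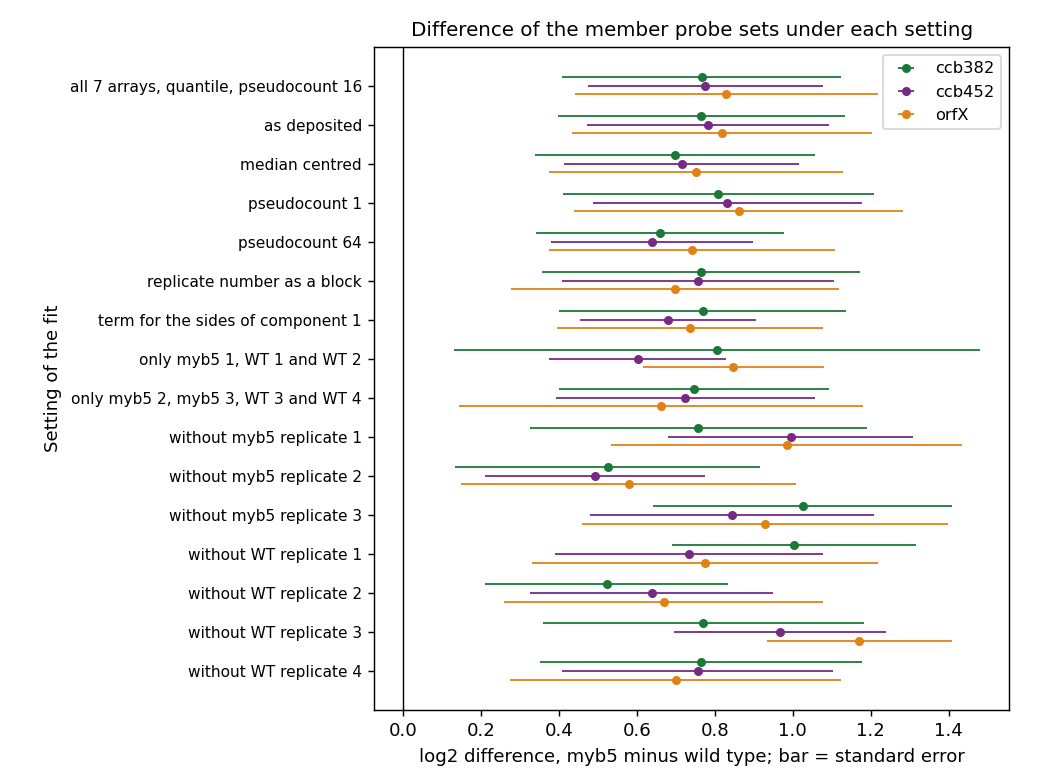
Log2 difference, myb5 minus wild type, of ccb382, ccb452 and orfX (horizontal axis, with bars of 1 standard error) under each setting of the fit (rows). All values lie above 0, the direction for which the genes were chosen. The lowest are those without myb5 replicate 2 or without wild-type replicate 2, and the highest is 1.17 for orfX without wild-type replicate 3.

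Markers of other tissues and of seed age were set beside these values. Of 5 late seed maturation genes, PAP85, a storage protein gene, and OLEO3, an oleosin gene, were measured. Their summed intensity was 628 to 5416 in myb5 and 836 to 7343 in wild type, with the high sums in myb5 replicate 1 and wild-type replicates 1 and 2. The genes ccb452 and orfX were lower on average in that set of arrays. Within each genotype, ccb452 was lower in every array of that set than in every array outside it. For orfX this held in myb5, but wild-type replicate 1 had 295, above the 254 of wild-type replicate 4. The summed seed coat markers given above were low in myb5 replicate 1 and wild-type replicates 1 and 2. ALC, a fruit wall gene and the only 1 of 4 such markers measured, had intensities of 70.9, 119.7 and 117.5 in myb5 replicates 1 to 3, against 59.7, 49.3, 116.6 and 78.1 in wild-type replicates 1 to 4. Among the wild-type arrays, ALC, ccb452 and orfX were highest in replicate 3 and lowest in replicate 2, while ccb382 was highest in replicate 1. The seed coat marker BAN was also highest in wild-type replicate 3. RCA, a nuclear photosynthesis gene and 1 of 2 listed, had 144.6 to 472.7 in myb5 and 221.7 to 573.0 in wild type. Of 3 endosperm markers IKU2 and AGL62 were measured, with a summed intensity of 8.96 to 21.1 in myb5 and 7.91 to 12.9 in wild type. No measured marker was listed at 0, and the part of seed coat, fruit wall or endosperm RNA and of seed age in the values of ccb382, ccb452 and orfX was not tested.

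The profiles of the 3 genes over the 7 arrays were compared after each was centred on its own mean, by the root mean square difference on the normalized log2 scale. The profiles of ccb452 and orfX lay 0.22 apart. Among the 4429 eligible probe sets, those that name 1 other gene and have a mean intensity of at least 100, ccb452 was the nearest to orfX, and orfX ranked 7 for ccb452. The profile of ccb382 was less like theirs, at 0.46 from ccb452 and 0.56 from orfX, and ccb452 ranked 114 for it. The centred values show where they part: wild-type replicate 1 was at 0.39 for ccb382 but at -0.45 for ccb452 and -0.51 for orfX, and wild-type replicate 3 was at -0.32 for ccb382 but at 0.24 for ccb452 and 0.66 for orfX. All 3 were close to each other in myb5 replicate 2, at 0.93 for ccb382, 1.02 for ccb452 and 0.98 for orfX.

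The probe sets most like ccb382 by this measure were those of ndhI, a subunit of the plastid NADH dehydrogenase-like complex, at 0.29, rpl32, a plastid ribosomal protein gene, at 0.30, and the nuclear genes AT1G23440, AT5G16040 and AT4G38930, each at 0.31. Those most like ccb452 were AT3G54200 at 0.15, rpoA, the alpha subunit of the plastid-encoded RNA polymerase, at 0.17, AT3G62650 at 0.18, AT2G43420 at 0.19 and rpl22, another plastid ribosomal protein gene, at 0.19. After ccb452, those most like orfX were AT2G43420 at 0.28, AT3G54200 at 0.29, AT4G28240 at 0.30 and AT1G65370 at 0.30. Thus ccb382 and ccb452 each had 2 plastid-encoded genes among their 5 nearest, and AT3G54200 and AT2G43420 were near both ccb452 and orfX. These profiles hold the genotype difference by which the genes were chosen, which brings them closer to each other. With each profile centred within its genotype, an alternative added after the data had been seen, ccb452 and orfX lay 0.22 apart, ccb452 ranked 2 for orfX and orfX ranked 93 for ccb452. On that scale ccb382 lay 0.46 from ccb452 and 0.56 from orfX, and ccb452 ranked 1126 for it. The measure favours genes that vary as strongly as the gene they are set against, and its n is 7 arrays that share the same 2 sides.

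Beyond these 3, the mitochondrial genome was represented by 20 probe sets for 13 other genes named alone, and none of these was chosen by the rule. Over all 22746 probe sets tested with limma, 1 passed an adjusted p of 0.05 (0.0044%). It is 256985_at, unnamed here and seen only after its values, with an intensity of 22.5 ± 6.13 in myb5 (SD, n = 3) and 673 ± 158 in wild type (SD, n = 4), and it differed by -4.19 on the log2 scale (limma adjusted p = 0.0019). Of the 20 probe sets, 0 passed (limma adjusted p = 1.00 for each), 4 had an unadjusted limma p under 0.05, against 3.46% of all probe sets, and 2 were higher in myb5 with no overlap, against 2.18%. Their log2 differences ran from -0.17 to 1.04, and the median was 0.29, against -0.00035 over all probe sets. Without myb5 replicate 2 that median was 0.068. Only nad4 and cox1 among the 20, both described below, had a mean intensity of at least 100, at 687 and 1127. Of the 20, 15 lay above 0 (75%), against 49.9% of all probe sets. The 69 plastid-encoded probe sets leaned the same way, with 52 above 0 (75.4%) and a median log2 difference of 0.19. Of these 69, 0 passed, 16 had an unadjusted limma p under 0.05 and 12 were higher in myb5 with no overlap.

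The largest log2 difference among the 20 other mitochondrion-encoded probe sets was that of nad4, a subunit gene of respiratory complex I. Its intensities were 584.1, 1578.3 and 794.9 in myb5 replicates 1 to 3, against 587.1, 265.8, 618.0 and 382.9 in wild-type replicates 1 to 4. As for ccb382, ccb452 and orfX, its ends were myb5 replicate 2 and wild-type replicate 2, and its log2 difference was 1.04 ± 0.40 (standard error) (limma adjusted p = 1.00). Next came nad9, another complex I gene, at 0.68, cox2, a cytochrome c oxidase gene, at 0.54, and the nad1 probe set 257322_at at 0.49, none of which passed. The cox2 probe set was dim, with means of 30.9 in myb5 and 14.5 in wild type, below the median intensity of every array. The offset of 16 understates changes at such intensities. The profile of nad9 lay 0.12 from that of ccb452, closer than any eligible probe set, but its mean intensity of 94.4 kept it out of that ranking.

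Not all mitochondrial transcripts had this profile. The lowest log2 differences were those of nad7, also of complex I, at -0.17, ccb203 at -0.17 and matR, an intron maturase gene, at -0.15. Next came cox1, the catalytic subunit gene of cytochrome c oxidase, at -0.05, and none passed. Only cox1 was bright among them. The probe sets of nad7, ccb203 and matR were dim, with mean intensities over the 7 arrays of 13.5, 13.04 and 15.2. The offset of 16 understates changes at such intensities. Those of ccb203 and matR were also highest in myb5 replicate 2, and that of nad7 in wild-type replicate 3. The bright cox1 probe set had 731.8, 1208.4 and 1199.5 in myb5 replicates 1 to 3, against 616.7, 1907.9, 1230.5 and 997.3 in wild-type replicates 1 to 4. Its highest array was wild-type replicate 2, the lowest array of ccb382, ccb452 and orfX. Probe sets of the same gene differed as well: the 7 of nad1 had log2 differences from -0.04 to 0.49, and the 1 at -0.04, 257325_at, was dim at 2.77 in myb5 and 2.72 in wild type. Of the 7, only 257322_at had a mean intensity, 74.1, above the median of the arrays. The dim 257323_at had a ratio of means of 1.97 but a log2 difference of 0.31, so part of this disagreement may come from the offset.

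Myb5 replicate 2 was the highest array for most mitochondrion-encoded probe sets. Of the 20 other mitochondrion-encoded probe sets, 14 were highest in myb5 replicate 2, against 14.96% of all probe sets, and their median centred log2 value there was 0.53, against 0.00 over all probe sets. At the low end, 7 of the 20 were lowest in wild-type replicate 2, against 18.3% of all probe sets. The 69 plastid-encoded probe sets were highest in myb5 replicate 2 in 20 cases (28.99%), against 14.96% of all probe sets, and their median centred value there was 0.17. In wild-type replicate 4 they were lowest in 28 cases (40.58%), against 11.37% of all probe sets. Of the 20 other mitochondrion-encoded probe sets, 1 was lowest in that array. These counts are descriptions, since transcripts of 1 genome on 1 array share a sample. Among the 20, only nad4 and cox1 had a mean intensity of at least 100.

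**Figure D3:**
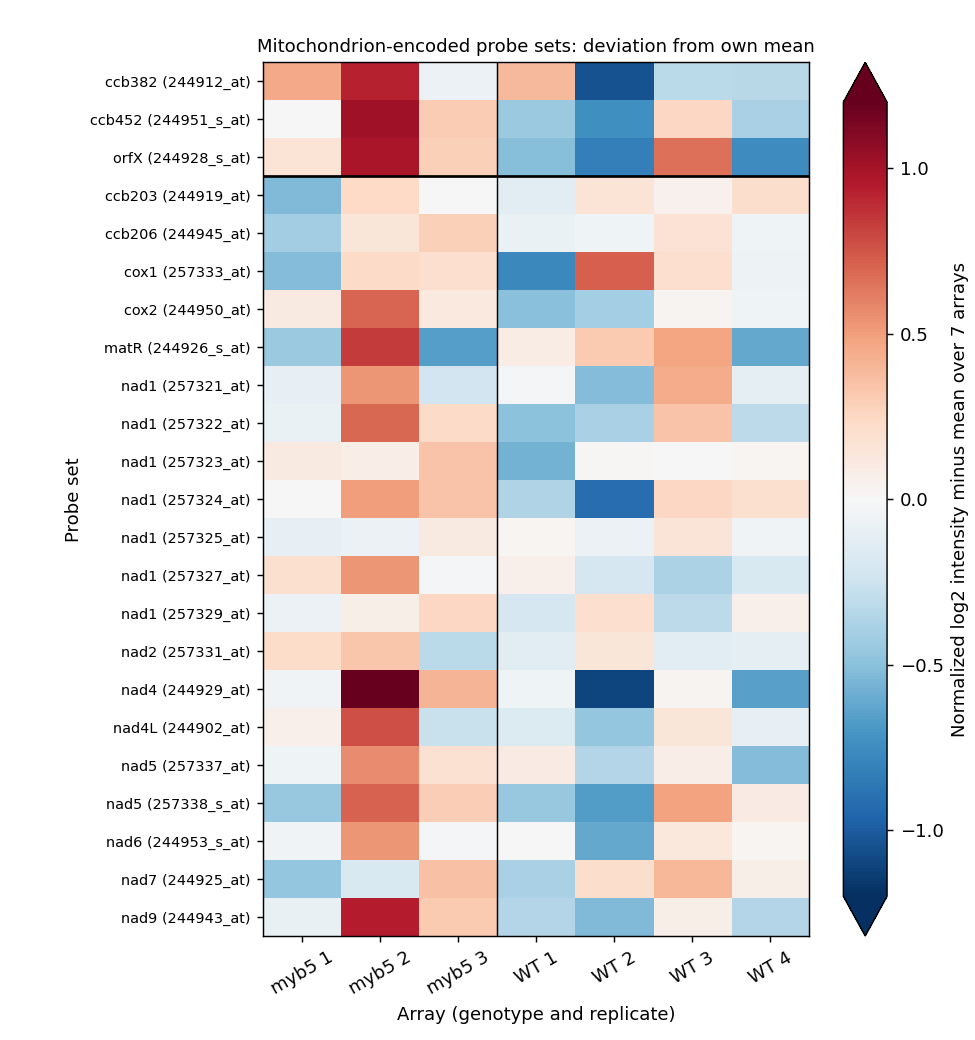
Normalized log2 intensity minus the probe set's own mean over the 7 arrays (colour, red high and blue low), with arrays in columns, myb5 left of wild type, and mitochondrion-encoded probe sets in rows, ccb382, ccb452 and orfX above the line. The column of myb5 replicate 2 is red for most rows, 14 of the 20 lower ones having their highest value there, and cox1 has its highest value in wild-type replicate 2.

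Nuclear copies could bear on what these probe sets measure, but which copies their probes match was not checked. The Columbia nucleus is known to carry a large insertion of mitochondrial DNA on chromosome 2, and 11 probe sets of the array name a mitochondrial gene together with a chromosome 2 locus. The names of the ccb452 and orfX probe sets end in _s_at, the array maker's mark for probes shared by several transcripts, and that of ccb382 does not. Each is annotated to its mitochondrial gene alone, and transcripts of a near-identical copy cannot be told apart in their values. Of the 11 probe sets with both names, a list added after the annotation had been seen, 9 had a log2 difference above 0, against 49.9% of all probe sets, and the median was 0.24. In 6 of them myb5 replicate 2 was the highest array, against 14.96% of all probe sets. None passed, 1 had an unadjusted limma p under 0.05, against 3.46%, and the same probe set, 265228_s_at, was higher in myb5 with no overlap, against 2.18%.

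Of 6 other listed genes of cytochrome c maturation, 3 were measured and 0 passed in either direction or reached 0.05 by the unadjusted limma p, and the median log2 difference was -0.09. The gene ccb203, listed as ccmFN2 and coding for another part of the split lyase subunit, was dim, at 12.3 ± 7.76 in myb5 (SD, n = 3) and 13.6 ± 2.82 in wild type (SD, n = 4), a log2 difference of -0.17. The gene ccb206, for the CcmB membrane subunit of the pathway's transporter, had 43.6 ± 14.4 in myb5 and 39.6 ± 4.73 in wild type, a log2 difference of 0.0024. CCMH, a nuclear gene for a protein that acts on the apocytochrome, had 34.0 ± 11.01 in myb5 and 35.5 ± 13.1 in wild type, a log2 difference of -0.09. Each of these means lay below the median intensity of every array.

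The proteins that receive the heme were measured on brighter probe sets. Of 5 listed genes for cytochrome c and cytochromes of complex III, 4 were measured, 0 passed, 0 were under 0.05 by the unadjusted limma p, and the median log2 difference was -0.06. That median was 0.09 without myb5 replicate 1 and -0.17 without myb5 replicate 3. CYTC-1, which encodes cytochrome c, had 2911 ± 722 in myb5 (SD, n = 3) and 3094 ± 568 in wild type (SD, n = 4). Its log2 difference was -0.03 ± 0.24 (standard error). CYTC-2, the other cytochrome c gene, had 235 ± 35.4 in myb5 and 268 ± 33.7 in wild type, a log2 difference of -0.19. The cytochrome c1 genes CYC1-1 and CYC1-2 had log2 differences of 0.08 and -0.09.

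The list of twin-arginine translocation genes, which mixes the mitochondrial and the plastid pathway, was represented by 2 of 4 genes. Of these, 0 passed and 0 had an unadjusted limma p under 0.05. TATB, the mitochondrial partner subunit, had 38.8 ± 4.76 in myb5 (SD, n = 3) and 26.9 ± 8.81 in wild type (SD, n = 4). Its log2 difference was 0.30 ± 0.17 (standard error). THA4, of the plastid pathway, had a log2 difference of 0.22 ± 0.15 (standard error). Of 10 listed genes for mitochondrial RNA synthesis, processing and decay, 2 were measured, 0 passed and 0 had an unadjusted limma p under 0.05. PNP, the mitochondrial polynucleotide phosphorylase that degrades RNA, had intensities of 23.2, 52.9 and 25.3 in myb5 replicates 1 to 3, against 18.3, 21.8, 27.4 and 32.9 in wild-type replicates 1 to 4. Its highest array was myb5 replicate 2, as for 14.96% of all probe sets, and its log2 difference was 0.17 ± 0.22 (standard error). RPOTMP, a phage-type organelle RNA polymerase, had 14.7 ± 9.10 in myb5 and 17.7 ± 12.5 in wild type, a log2 difference of -0.18. It was highest in wild-type replicate 4 and lowest in wild-type replicate 2.

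**Figure D4:**
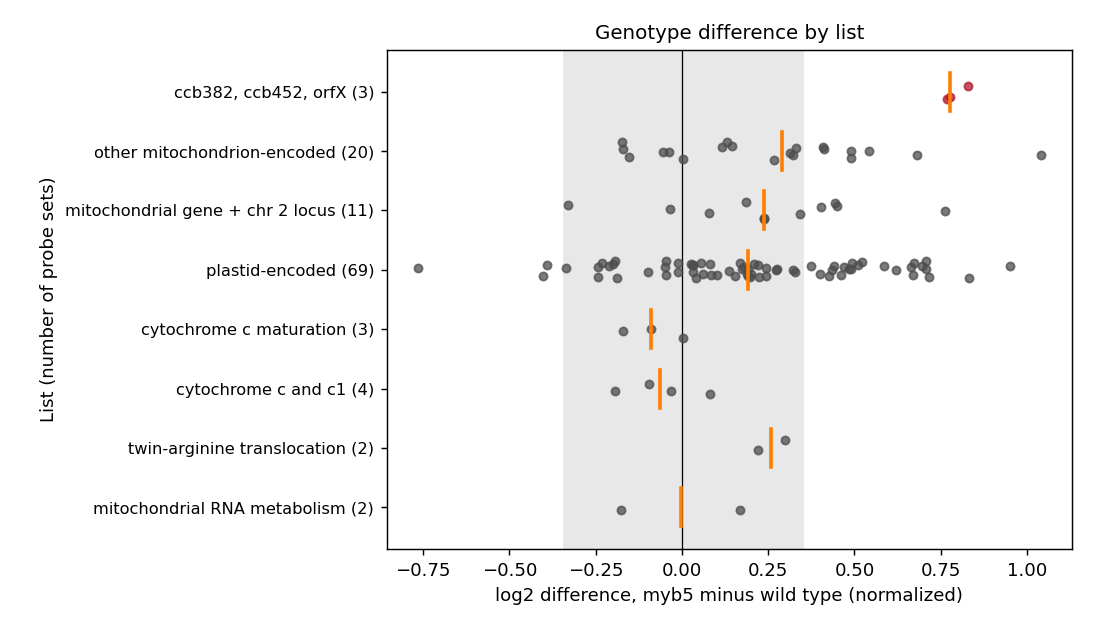
Log2 difference, myb5 minus wild type, of each probe set (points, horizontal axis) by list (rows), with the median of each list as an orange bar and the range from the 5% to the 95% quantile of all probe sets, -0.34 to 0.35, in grey. The chosen genes ccb382, ccb452 and orfX lie at 0.77 to 0.83, the other mitochondrion-encoded probe sets spread from -0.17 to 1.04, and the pathway lists lie within the grey range.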

How the data were processed

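The deposited table holds 1 linear intensity per probe set and array, which from the values had been scaled to a common trimmed mean (150.01 on all 7 arrays after dropping 2% at either end). The software and its settings are not given in the sources used here. No detection calls were used. The 64 control probe sets were left out. Intensities were turned into log2(intensity + 16), which understates changes of dim probe sets, and quantile normalized. Genotypes were compared with limma 3.58.1 in R 4.3.3 over 22746 probe sets, with Benjamini-Hochberg adjustment, after a check on simulated data. The number of arrays limits the precision.

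Of these probe sets, 13513 name 1 gene, 503 several, and 8730 are unnamed here. Mitochondrial names were matched by symbol or synonym to the mitochondrial genome of the gene table (TAIR10.1). No sequence was used here. The genes, lists and tests were chosen with earlier results of these data known. Named genes are the 3 chosen ones, the 5 most alike for each, all measured genes of the pathway lists, and the 4 largest differences in each direction among other mitochondrion-encoded probe sets. Alternatives were the intensities as deposited, median centring, pseudocounts of 1 and 64, a block for the replicate number, a term for the sides of the first principal component, each side alone, a filter on dim probe sets, array weights and leaving out each array.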

Additional observations from a re-analysis of the deposited data

Results flagged for a closer look

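Among the 4 wild-type arrays, 1 array lay far from the others for 4 of the 32 mitochondrial and pathway probe sets examined, where chance gives about 1 in 20. None of the 4 belongs to ccb382, ccb452 or orfX. The rate of 1 in 20 takes the values as normally distributed, and the 32 probe sets share the same arrays. All 4 flagged probe sets had mean intensities below the median of every array. On the normalized log2 scale, ccb206 was at 6.0 in wild-type replicate 3, where the remaining wild-type arrays had 5.75 to 5.78. The nad1 probe set 257323_at was at 4.06 in wild-type replicate 1, against 4.63 to 4.65. These values came from very low intensities, 0.63 against 8.18 to 9.09. In wild-type replicate 2, nad2 was at 5.07, against 4.79 to 4.802, and nad6 at 4.97, against 5.59 to 5.71.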

How the results depend on the processing

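The log2 differences of ccb382, ccb452 and orfX stayed above 0 in each of the 15 alternatives run for them, from 0.52 to 1.03 for ccb382, 0.49 to 0.99 for ccb452 and 0.58 to 1.17 for orfX, and both ends came from leaving out an array. The genes were chosen for this direction and the alternatives reuse the same arrays, so nothing is read from the constant sign. With the replicate block, in which wild-type replicate 4 has no partner, the differences of the 3 genes were 0.76, 0.76 and 0.70. Same-numbered samples of the genotypes deviated from their group means with correlations of 0.63, -0.30 and 0.55 for numbers 1, 2 and 3, so the numbers were not taken to pair the samples. Over all probe sets, the count of 1 call became 0 with the replicate block and 0 within either side of the first principal component, and 2 without the dimmest 30% of probe sets, where 259737_at was added (1.82, limma adjusted p = 0.0492). With single arrays left out the count was 1 to 2, with AT2G14160 (2.25, limma adjusted p = 0.0127) added without myb5 replicate 1. All 5 lists kept 0 calls under the 17 alternatives. Leaving out each array moved the median log2 difference of the other mitochondrion-encoded probe sets from 0.068 to 0.36, that of the cytochrome c maturation list from -0.25 to 0.05, that of the cytochrome c and complex III list from -0.17 to 0.09, that of the twin-arginine list from 0.20 to 0.35 and that of the mitochondrial RNA list from -0.19 to 0.20. The maturation list was at -0.35 among myb5 replicate 1 and wild-type replicates 1 and 2 alone, a fit that takes the spread of the lone mutant array from wild type.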
